A study of Mus musculus with 4 samples.

Results

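Tubulins are the building blocks of microtubules, the hollow filaments that carry cargo through the cell, position organelles, and pull chromosomes apart at mitosis. An α-tubulin and a β-tubulin pair into a dimer, and mammals make each from several genes, called isotypes, whose proteins share a folded core and differ mostly in the acidic tail at the carboxyl end. Some isotypes, such as Tuba1b and Tubb5, are made in most dividing cells, whereas Tuba8 is a divergent α-tubulin known mainly from muscle and testis.

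The tubulin genes described here are the 10 rows of the count table whose symbol is Tuba1a, Tuba1b, Tuba1c, Tuba4a, or Tuba8 (5 α-tubulins) or Tubb2a, Tubb2b, Tubb4b, Tubb5, or Tubb6 (5 β-tubulins), out of 27179 rows. They were chosen by their symbols after the CPM and fold changes between treatments were known, above all those of Tuba8, so their values in the 2 treatments are given as a description, with no test. All 10 passed the filter for the test across genes, a mean over the libraries of at least 1 CPM (counts per 10 to the power of 6, with TMM scaling). Tuba8 passed only through its DCA libraries, and Tubb2b only through vehicle replicate 1 (3.50 CPM, against at most 0.482 CPM elsewhere).

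The cells were ILC2s of the C57BL/6 mouse large intestine, obtained by sorting. ILC2s are tissue lymphocytes that carry no antigen receptor and secrete IL-5 and IL-13. They were grown for 5 days with IL-33, IL-25, IL-7, and IL-2 (10 ng/mL each) and then given vehicle (2 libraries) or the secondary bile acid deoxycholic acid (DCA, 100 μM, 2 libraries) for 16 hours by the deposited design text or 24 hours by the methods of the study. All 4 libraries are thus from cytokine-stimulated cultures of wild-type cells, and no source states whether the libraries of a treatment came from separate mice or cultures, so p-values measure only the spread between these libraries. The comparison asks which transcripts differ after exposure to DCA.

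The libraries hold between 26564059 and 35838342 counts, except DCA replicate 2 with 244165712. Markers of ILC2s summed to 15678 to 17028 CPM in vehicle-treated cells and 18113 to 20284 CPM with DCA, with Il5 the largest part in each library. Il5, Il7r, Il2ra, and Icos were higher in each DCA library than in each vehicle library, whereas Il1rl1, Klrg1, and Areg were lower. For the other markers the treatments overlapped. Over all genes tested, 18.6% were above vehicle in both DCA libraries and 14.7% were below. The nearest Icos values of the treatments were 3480 CPM (vehicle) and 3492 CPM (DCA). All 12 markers passed the filter, Thy1 only through DCA replicate 1 (4.24 CPM, against at most 0.0547 CPM elsewhere). Markers of muscle summed to at most 4.76 CPM and those of germ cells to at most 0.0547 CPM in any library, with Acta1, Ddx4, Prm1, and Prm2 at 0 counts in all 4. Other muscle markers were found at low levels. Tagln was at 1.61 CPM in vehicle replicate 1 and 3.59 CPM in DCA replicate 2, and Des was at 1.21 CPM in DCA replicate 1. Acta2 was at 0 and 2.60 CPM in vehicle-treated cells and 0.773 and 1.02 CPM in DCA-treated cells. Summed markers of neurons and glia were 26.5 and 27.4 CPM in vehicle-treated cells and 55.2 and 40.7 CPM in DCA-treated cells, mostly from Uchl1, a deubiquitinase that is not restricted to neurons, with Snap25 at 0 counts. Summed markers of T cells lay between 11.2 and 26.7 CPM, those of B cells between 37.7 and 55.1 CPM (mostly Cd79b), those of macrophages and monocytes at 23.97 to 24.65 CPM in vehicle-treated cells and 7.30 to 10.2 CPM with DCA, those of epithelial cells between 7.73 and 13.5 CPM, and those of fibroblasts at most at 1.45 CPM. Cd4, Cd8a, Pax5, Csf1r, and Cd14 were at 0 counts in all libraries. The part of these other cell types in the tubulin values was not tested.

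The end of the coding sequence shows how the α-tubulins differ where enzymes act on the protein. Many α-tubulins end in a tyrosine (TAC or TAT) that a carboxypeptidase removes and the ligase Ttl puts back. The last 36 coding bases of Tuba1c, Tuba4a, and Tuba8, stop codon included, are shown with the final codon before the stop in capitals, to set Tuba8 beside an isotype that ends in tyrosine and one that does not.
Tuba1c: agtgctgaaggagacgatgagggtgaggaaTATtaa
Tuba4a: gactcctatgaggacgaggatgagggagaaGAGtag
Tuba8: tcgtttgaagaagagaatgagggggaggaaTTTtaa
Tuba1c closed with TAT, a tyrosine codon. Tuba4a closed with GAG, a glutamate codon, and Tuba8 with TTT, a phenylalanine codon. On GRCm38 these stretches lie in the last exons at chr15:99037974-99038009 on the plus strand (Tuba1c), chr1:75215622-75215657 on the minus strand (Tuba4a), and chr6:121226044-121226079 on the plus strand (Tuba8).

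Lysine 40 of α-tubulin is the site that the acetyltransferase Atat1 modifies and Hdac6 clears, a mark of long-lived microtubules. The 27 coding bases around codon 40, counted from the start codon, are shown for each α-tubulin with that codon in capitals.
Tuba1a: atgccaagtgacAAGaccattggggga
Tuba1b: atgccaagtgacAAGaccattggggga
Tuba1c: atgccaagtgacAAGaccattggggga
Tuba4a: atgcccagcgatAAGaccattggtgga
Tuba8: tttggcactcagGCCagcaagatcaac
Codon 40 was AAG, a lysine codon, in 4 of 5 α-tubulins and GCC in Tuba8, whose coding sequence differs over the whole window. The Tuba8 stretch lies in exon 2 at chr6:121220486-121220512 on the plus strand, and the others at chr15:98951563-98951589 (Tuba1a, minus), chr15:98933067-98933093 (Tuba1b, minus), chr15:99034196-99034222 (Tuba1c, plus), and chr1:75217306-75217332 (Tuba4a, minus).

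Cells hold free tubulin steady by destroying tubulin messages on the ribosome, and the adaptor Ttc5 finds these messages by the first 4 residues of the new chain. The first 24 coding bases are shown for an abundant α-tubulin, Tuba8, and a pair of abundant β-tubulins, with codons 1 to 4 in capitals.
Tuba1b: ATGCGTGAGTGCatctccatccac
Tuba8: ATGAGGGAATGCatatcggtccat
Tubb4b: ATGAGGGAGATCgtgcacctgcag
Tubb5: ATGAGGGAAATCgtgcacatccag
All 5 α-tubulins, Tuba8 included, had TGC as codon 4, and Tubb2a, Tubb2b, Tubb4b, and Tubb5 had ATC there. An intron splits this stretch in all 5 α-tubulins.

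Coding sequence identity, the share of aligned bases that are the same, was 97.1% to 98.3% among Tuba1a, Tuba1b, and Tuba1c and 96.5% between Tubb2a and Tubb2b. Tuba8 shared 79.2% to 81.1% of its coding bases with the other α-tubulins and 53.0% to 56.2% with the β-tubulins, and its longest exact run in common with another α-tubulin was 38 bases. This matters for counting, because the sources used here do not state how reads that match several genes were treated. Of the distinct 150-base windows (the read length) of the annotated transcript, 54.7% in Tuba1a, 57.9% in Tuba1b, and 46.7% in Tuba1c also occurred in a transcript of another gene, each other and tubulin pseudogenes, so the split of reads among these 3 is uncertain. The share was 27.9% for Tubb2a, 20.1% for Tubb2b, and 16.8% for Tubb4b, and no window of Tubb5 or Tubb6 was shared. No window of Tuba8 occurred in another tubulin, and 10.4% of them lay in Gm15856, an antisense gene that overlaps its last exon. In Tuba4a 45.7% of the windows lay in transcripts of Stk16, a kinase gene on the opposite strand. The library kit does not mark strand, so reads from such overlapping genes cannot be told apart where the genes overlap. The part of Gm15856 in the Tuba8 counts and of Stk16 in the Tuba4a counts was not tested.

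**Figure D1:**
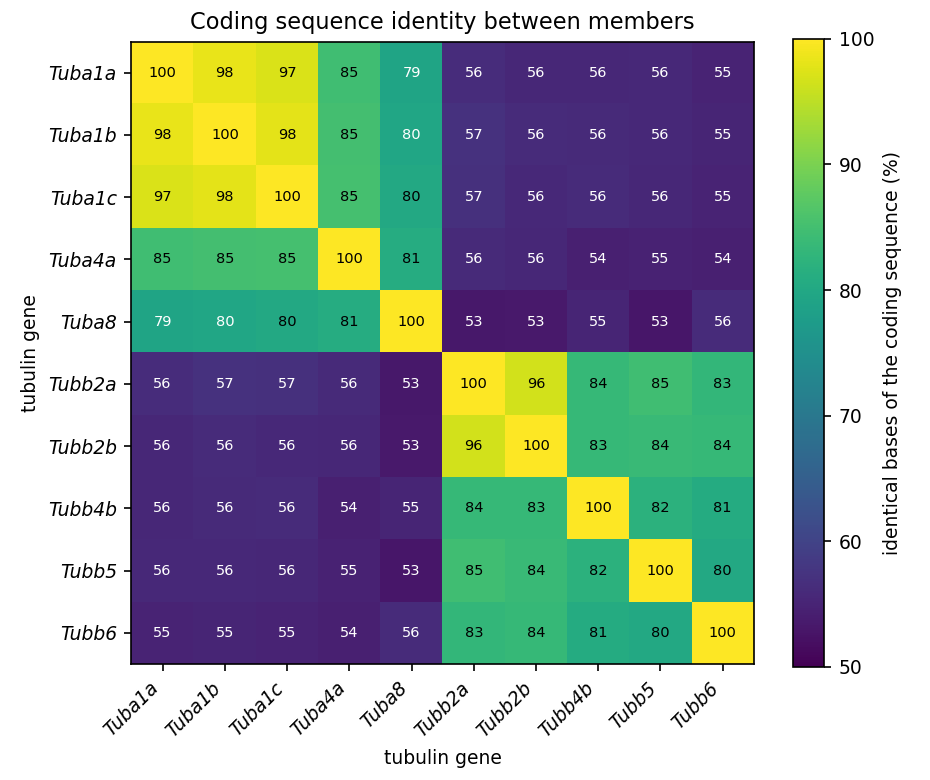
Percent of identical bases between the coding sequences of each pair of the 10 tubulin genes (both axes list the genes, color and number give the percent). Tuba1a, Tuba1b, and Tuba1c form a block of 97.1% to 98.3%, Tubb2a and Tubb2b a pair at 96.5%, and Tuba8 stands at 79.2% to 81.1% from the other α-tubulins.

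Tuba8 had counts with DCA and none with vehicle, whereas the other 4 α-tubulins were counted in every library. In RefSeq on GRCm38, Tuba8 (Entrez gene 53857) lies on chromosome 6 from 121210734 to 121226098 on the plus strand. The GENCODE transcript used for its length has 5 exons and runs from 121210696 to 121226854. It had 0 counts in both vehicle libraries, 482 in DCA replicate 1, and 1447 in DCA replicate 2, or 14.9 and 6.01 CPM, a mean of 10.5 ± 6.29 CPM (SD, n = 2). Each DCA library was above the vehicle pair, and the DCA libraries differed from each other 2.48-fold. Of the tested genes with counts in both DCA libraries, 13.6% differed between them at least as much. The upper limit that 0 counts leave is 3 counts, or 0.0820 CPM in vehicle replicate 1 and 0.114 CPM in vehicle replicate 2, so the DCA mean was at least 106-fold higher, or at least 61.2-fold by DCA replicate 2 alone. These limits cover counting error only. In bulk RNA, more cells that express a gene and more RNA per cell cannot be told apart.

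Thinned at random to the median depth of the other libraries, DCA replicate 2 held 217 Tuba8 counts, or 6.82 CPM. The vehicle libraries held 0 Tuba8 counts beside 3940 and 4300 counts of Tuba1b and 9805 and 8757 of Tuba4a. The pattern of 0 counts in both vehicle libraries and at least 1 CPM in both DCA libraries was found in 109 of all 27179 rows and in 82 of the 11184 genes tested (0.733%). The mirror pattern, 0 counts with DCA and at least 1 CPM with vehicle, was found in 11 rows and in 8 tested genes (0.0715%). At the lower DCA level of Tuba8, 6.01 CPM in both libraries of one treatment and 0 counts in both of the other, 5 genes were found with DCA, Tuba8 among them, and 2 with vehicle.

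The nearest protein-coding genes to Tuba8 on the chromosome had few counts. Usp18, a protease that removes the ubiquitin-like ISG15, begins 19807 bases after its end and had 1 and 0 counts in vehicle-treated cells and 126 and 0 in DCA-treated cells. Pex26, a peroxisome biogenesis gene that ends 11896 bases before Tuba8 and was picked after its values were seen, was at 0 counts with vehicle and had 24 and 426 counts in the DCA libraries, or 0.742 and 1.77 CPM. The long noncoding RNA Gm38651 lies between Pex26 and Tuba8, as the nearest annotated gene before Tuba8, and the count table has no row under its symbol. Both Pex26 and Tuba8 were thus at 0 with vehicle, while Usp18 was found in DCA replicate 1 and was at 0 in DCA replicate 2. Because Pex26 was picked for its values, its likeness to Tuba8 shows no pattern of the locus.

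The 5 genes whose levels over the 4 libraries were closest to those of Tuba8, by Euclidean distance of log2(CPM + 1) among the genes tested, were Ppm1j, Afap1, Fbxl18, Ccdc15, and B3gnt8. Ppm1j, a protein phosphatase, was the closest at a distance of 0.04, with 0 counts in both vehicle libraries and 14.5 and 5.97 CPM with DCA. Afap1, an actin filament–associated protein, followed at 0.25 with 4 and 1 counts with vehicle and 13.0 and 5.88 CPM with DCA. Fbxl18, an F-box protein, was at a distance of 0.40, Ccdc15 at 0.43, and the glycosyltransferase B3gnt8 at 0.43. All 3 of these had 0 counts in both vehicle libraries and, like Tuba8, more CPM in DCA replicate 1 than in DCA replicate 2. This likeness follows from the way the 5 genes were picked.

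The 250 bases before the Tuba8 start are shown because the gene was counted with one treatment alone, from chr6:121210484-121210733 on the plus strand of GRCm38.p6 in RefSeq, with every match to a searched motif in capitals.
Tuba8: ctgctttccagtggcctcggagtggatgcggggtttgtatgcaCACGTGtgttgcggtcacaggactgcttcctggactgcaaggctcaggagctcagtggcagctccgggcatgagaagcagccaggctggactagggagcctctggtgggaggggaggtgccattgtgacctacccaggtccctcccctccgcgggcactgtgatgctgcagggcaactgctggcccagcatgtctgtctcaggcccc
Both strands were searched for the CCAAT box, for the TATA box as TATAAA, for ACGTG (the core of many basic helix-loop-helix and basic zipper sites), for the ATF4 motif as TGATGNAAN, and for the endoplasmic reticulum stress element, whose first letters overlap CCAAT. Tuba8 held ACGTG, found on both strands at one place, as did Tubb5, and 16.6% of all 32851 promoters of the same length hold it. Of the 8 tubulin promoters matched, 4 held CCAAT (Tuba1a, Tuba1c, Tubb4b, and Tubb5, against 33.8% of all promoters), and 1 held TATAAA (Tubb2a, against 12.4%). None of the 8 held TGATGNAAN (3.44% of all promoters) or the endoplasmic reticulum stress element (0.113%). A match is a run of letters and not a shown binding site.

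Per length, Tuba8 was the least abundant α-tubulin in every library. Levels were scaled to CPM per kilobase of transcript, which adjusts for transcript length but not for reads shared with other genes. The GENCODE transcript of Tuba8 runs past the end of the RefSeq gene, and the annotation used for counting is not stated. Its level per kilobase and its share therefore depend on the length used. With coding length, the mean Tuba8 share with DCA was 2.07%, against 2.02% with transcript length. With DCA, Tuba8 was at 6.59 and 2.66 CPM per kilobase, and it made up 2.82% and 1.22% of the summed α-tubulin level. In the vehicle libraries the limit that 0 counts allow is 0.0171% of that sum in each. Tuba1a, the next α-tubulin, was 2.32 and 3.52 times as high as Tuba8 in the DCA libraries, Tuba1b was 11.3 and 24.8 times as high, and Tuba4a 12.4 and 31.9 times. Among all genes with a count, Tuba8 stood above 44.6% in DCA replicate 1 and above 43.8% in DCA replicate 2 in CPM.

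By these counts Tuba4a was the most abundant α-tubulin per length, with 35.0% to 44.6% of the summed α-tubulin level over the 4 libraries. However, 45.7% of the Tuba4a windows occurred in Stk16, and 46.7% to 57.9% of those of Tuba1a, Tuba1b, and Tuba1c in other genes. How such reads were counted is not stated, so this order and each share of the α-tubulin sum, that of Tuba8 included, are uncertain. Tuba1b held 29.2% to 32.0%, Tuba1c 21.4% to 25.6%, and Tuba1a 4.28% to 6.56%. Among the β-tubulins, Tubb4b held 61.4% to 74.3% of the summed β-tubulin level, Tubb5 14.3% to 26.96%, Tubb6 4.74% to 13.5%, Tubb2a 0.936% to 4.24%, and Tubb2b at most 0.349%. In CPM per kilobase averaged over the 4 libraries, the ranges of neighbors in this order were apart in 2 places: Tubb4b (359 ± 31.9, SD, n = 4) was above Tubb5 (106 ± 37.1) in every library, and Tuba1a (11.97 ± 2.77) was above Tuba8 (2.31 ± 3.11). Between them came Tuba4a (94.7 ± 16.3), Tuba1b (74.1 ± 14.4), Tuba1c (56.9 ± 10.8), Tubb6 (51.6 ± 24.9), and Tubb2a (17.1 ± 7.80), and the ranges of all neighbors there overlapped. Tuba4a was above Tuba1b and Tuba1b above Tuba1c in 4 of 4 libraries, whereas Tubb5 against Tuba4a and Tuba1c against Tubb6 were split 2 to 2. Tubb2b had the lowest mean, 0.460 ± 0.769 CPM per kilobase, with Tuba8 above it in 2 of 4 libraries, both with DCA, and below it in vehicle replicate 1.

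**Figure D2:**
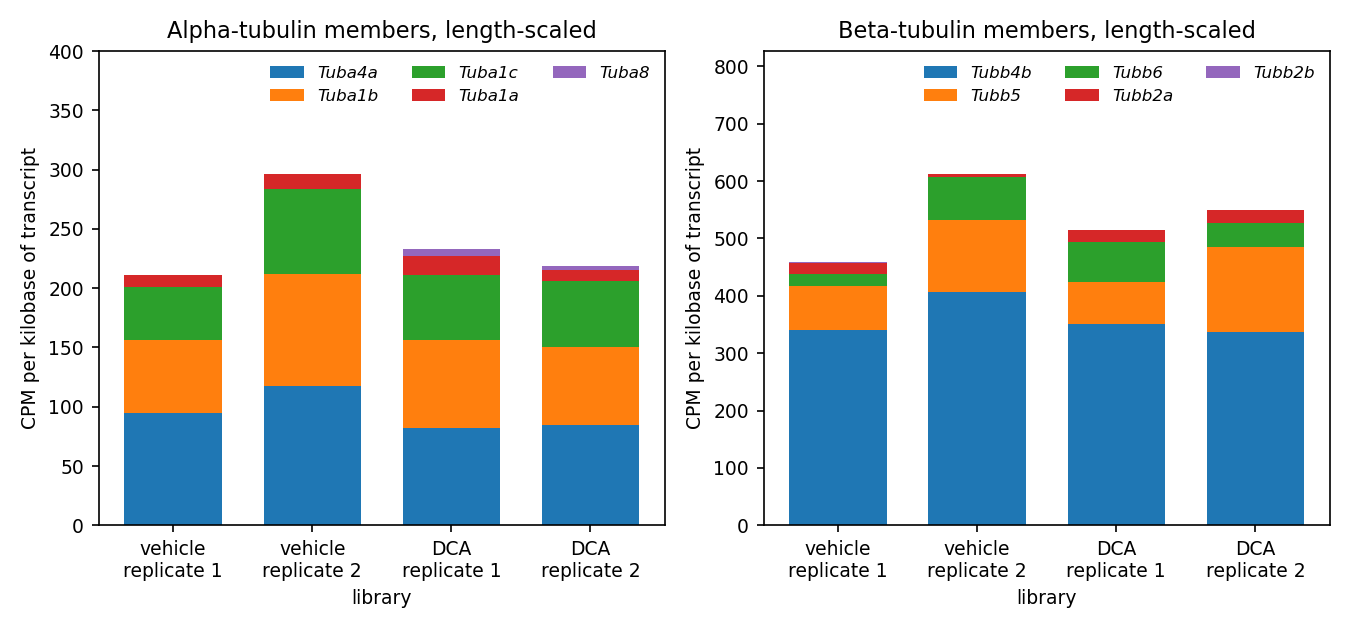
Length-scaled levels (CPM per kilobase of transcript, vertical axis) of the 5 α-tubulins (left) and 5 β-tubulins (right) stacked by library, with no error bars because each bar is 1 library. Tuba8 is a thin segment of 6.59 and 2.66 CPM per kilobase in the DCA bars alone, and Tubb4b fills 61.4% to 74.3% of each β-tubulin bar.

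The summed α-tubulin level was 254 ± 60.1 CPM per kilobase with vehicle and 226 ± 10.7 with DCA (SD, n = 2 each), and the treatments overlapped. The summed β-tubulin level was 536 ± 109 CPM per kilobase with vehicle and 532 ± 25.1 with DCA, and these overlapped as well. The ratio of the α sum to the β sum was 0.461 and 0.484 with vehicle and 0.454 and 0.397 with DCA.

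Among the α-tubulins other than Tuba8, Tuba4a lay below the vehicle range in each DCA library. Tuba4a (Entrez gene 22145, chromosome 1 from 75214972 to 75221261) was at 268 and 334 CPM in vehicle-treated cells and 232 and 241 CPM in DCA-treated cells, a difference of mean log2(CPM + 1) of -0.34 (SE 0.16). Tuba1b (Entrez gene 22143, chromosome 15 from 98931429 to 98934390) was at 108 and 164 CPM in vehicle-treated cells and 130 and 115 CPM in DCA-treated cells. Both of its DCA libraries fell between the vehicle libraries, and its difference on the same scale was -0.12 (SE 0.32). Tuba1c (Entrez gene 22146, chromosome 15 from 99029891 to 99038105) was at 89.8 and 142 CPM in vehicle-treated cells and 109 and 110 CPM in DCA-treated cells, with a log2 difference of -0.039 (SE 0.33), again between the vehicle libraries. Tuba1a (Entrez gene 22142, chromosome 15 from 98949847 to 98953501), an isotype best known from neurons, was at 18.2 and 23.7 CPM in vehicle-treated cells and 27.6 and 16.9 CPM in DCA-treated cells, with a log2 difference of 0.053 (SE 0.39). For Tuba1a the DCA libraries lay on either side of the vehicle libraries.

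Among the β-tubulins, Tubb2a lay above the vehicle range in each DCA library. Tubb2a (Entrez gene 22151, chromosome 13 from 34074278 to 34078008) was at 29.8 and 9.24 CPM in vehicle-treated cells and 33.4 and 37.5 CPM in DCA-treated cells, a difference of mean log2(CPM + 1) of 1.04 (SE 0.80). Without vehicle replicate 2, the lowest library, the log2 difference was 0.24. Tubb2b (Entrez gene 73710, chromosome 13 from 34127008 to 34130354), the near copy of Tubb2a, had 128 and 0 counts in vehicle-treated cells and 1 and 116 in DCA-treated cells. One library of each treatment carried nearly all of its reads, at 3.50 CPM in vehicle replicate 1 and 0.482 CPM in DCA replicate 2.

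Tubb4b (Entrez gene 227613, chromosome 2 from 25222158 to 25224702), a β-tubulin of nearly all tissues, was the steadiest of the 10. It was at 545 and 648.5 CPM in vehicle-treated cells and 560 and 539 CPM in DCA-treated cells, with a log2 difference of -0.11 (SE 0.13). Tubb5 (Entrez gene 22154, chromosome 17 from 35833920 to 35838301), a main β-tubulin of dividing cells, was at 201 and 335 CPM in vehicle-treated cells and 195 and 393 CPM in DCA-treated cells. Each treatment held a low and a high Tubb5 library, and the log2 difference was 0.093 (SE 0.62). Tubb6 (Entrez gene 67951, chromosome 18 from 67390731 to 67402749) was at 38.2 and 131 CPM in vehicle-treated cells and 122 and 71.5 CPM in DCA-treated cells, with a log2 difference of 0.39 (SE 0.96). Both Tubb6 values with DCA lay between the vehicle libraries.

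**Figure D3:**
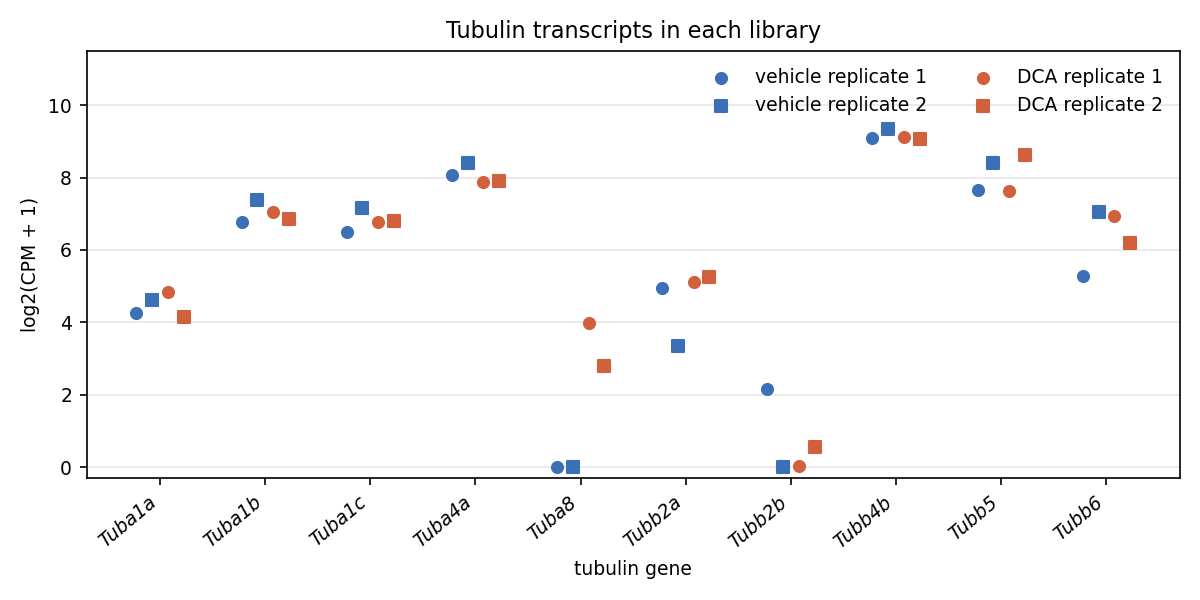
Level of each of the 10 tubulin genes (horizontal axis) as log2(CPM + 1) (vertical axis), 1 point per library, with vehicle in blue and DCA in orange, replicate 1 as circles and replicate 2 as squares. The treatments are apart for Tuba8 (0 with vehicle, 14.9 and 6.01 CPM with DCA), Tubb2a, and Tuba4a and overlap for the other 7 genes.

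In all, 2 of the 10 genes were above vehicle in both DCA libraries and 1 was below. The treatments thus did not overlap for 3 of 10, against 33.3% of the 11184 genes tested (18.6% above and 14.7% below). The median difference of mean log2(CPM + 1) over the 10 genes was 0.007, and the median edgeR log2 fold change was 0.004 for them and 0.008 for all genes tested. Vehicle replicate 2 was above vehicle replicate 1 for 7 of the 10 genes and was the highest library for 5. The same library was above vehicle replicate 1 for 12 of 12 genes of dividing cells (cyclins, mitotic kinases, and the like), which summed to 2132 and 3589 CPM in vehicle-treated cells and 2277 and 2462 CPM in DCA-treated cells. The part of these genes in the tubulin values was not tested. Between the vehicle libraries the median absolute difference of log2(CPM + 1) was 0.63 over the tubulin genes and 0.56 over all genes tested, and between the DCA libraries it was 0.35 and 0.41.

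The microtubule genes that are not among the 10 were taken from 6 lists, with a list of dividing-cell genes beside them. The treatments were compared with the quasi-likelihood test of edgeR (two-sided, Benjamini-Hochberg adjustment over all 11184 genes). At an adjusted p of 0.05, 0 of the 104 list genes tested and 0 of all genes (0%) were called by edgeR, and DESeq2 called 126 genes. At an unadjusted p of 0.05, 0 list genes rose and 3 fell, or 2.88% of 104, against 4.27% of all genes (2.54% higher and 1.73% lower with DCA). The 3 genes were Kif2c, Tubgcp3, and Camsap1, each with an adjusted p of 0.999 in edgeR's test.

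Kif2c, a kinesin that depolymerizes microtubules at centromeres, was at 110 and 127 CPM in vehicle-treated cells and 48.9 and 62.0 CPM in DCA-treated cells. Its log2 fold change was -1.10 (SE 0.20 from log2(CPM + 1) values), with an unadjusted edgeR p of 0.00777, and from 0.000853 to 0.00709 over the 8 alternatives with all libraries. With a library left out the unadjusted edgeR p of Kif2c reached 0.0709, without DCA replicate 1. Tubgcp3, a subunit of the γ-tubulin ring complex that starts new microtubules, was at 54.9 and 60.7 CPM in vehicle-treated cells and 32.9 and 28.1 CPM in DCA-treated cells. Its log2 fold change was -0.92, with an unadjusted edgeR p of 0.0334, and its difference of mean log2(CPM + 1) was -0.90 (SE 0.13). With a library left out the Tubgcp3 log2 fold change ranged from -1.05 (without DCA replicate 1) to -0.81 (without DCA replicate 2). The call of Tubgcp3 at an unadjusted p of 0.05 did not hold in every such fit. Camsap1, which caps the minus ends of microtubules, was at 7.08 and 28.2 CPM in vehicle-treated cells and 2.999 and 3.38 CPM in DCA-treated cells. The log2 fold change of Camsap1 was -2.46, with an unadjusted edgeR p of 0.0356, and its difference of mean log2(CPM + 1) was -1.875 (SE 0.93). The unadjusted p of Camsap1 was 0.0539 with limma and 0.0736 with the replicate block in edgeR, and without a library it was 0.131 (DCA replicate 1), 0.120 (DCA replicate 2), and 0.381 (vehicle replicate 2) in edgeR. Every DCA value of these 3 genes was below every vehicle value.

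Of the 10 other tubulins on the first list, 5 passed the filter and 0 were called. Of these 5, 0 were above vehicle in both DCA libraries and 3 (Tubb3, Tubg2, and Tube1) were below. The shares over all genes tested were 18.6% above and 14.7% below. Tubg1, which encodes the γ-tubulin of the centrosome, was at 104 and 143 CPM in vehicle-treated cells and 139 and 200 CPM in DCA-treated cells, with a log2 fold change of 0.46 and an unadjusted edgeR p of 0.178. Tube1 and Tubd1, the ε- and δ-tubulins of centrioles, had log2 fold changes of -1.04 and -0.38, Tubg2 one of -1.62, and the neuronal Tubb3 one of -1.02, with an unadjusted edgeR p of 0.12 or more for each. Tuba3a and Tubb1 were at 0 counts in every library, and Tuba3b and Tubal3 had 4 and 2 counts in DCA replicate 2 and 0 elsewhere. Tubb4a, which did not pass the filter and was picked after its values were seen, had 0 and 2 counts in vehicle-treated cells and 46 and 424 in DCA-treated cells, or 1.42 and 1.76 CPM with DCA.

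All 22 genes of tubulin folding and dimer assembly were tested, and 0 were called. The 8 subunits of the chaperonin that folds tubulin and actin (Tcp1 and Cct2 to Cct8) had log2 fold changes between -0.081 and 0.24. Ttc5, the adaptor for decay of tubulin messages, was at 94.5 and 72.6 CPM in vehicle-treated cells and 61.3 and 50.7 CPM in DCA-treated cells, with a log2 fold change of -0.58 and an unadjusted edgeR p of 0.106. The median log2 fold change of the list was 0.11, against 0.008 over all genes tested.

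Of the 20 tubulin modifying enzymes, 13 were tested and 0 were called, with a median log2 fold change of 0.48. The 4 enzymes whose DCA values all lay above their vehicle values were Atat1, Hdac6, the glutamylase subunit Ttll1, and the deglutamylase Agbl5, and 0 had both below, against 18.6% above and 14.7% below over all genes tested. Atat1 was at 11.0 and 9.77 CPM in vehicle-treated cells and 16.1 and 12.4 CPM in DCA-treated cells, and Hdac6 at 5.27 and 8.47 CPM in vehicle-treated cells and 11.6 and 12.3 CPM in DCA-treated cells. The unadjusted edgeR p was 0.499 for Atat1 and 0.33 for Hdac6. Ttl, which restores the final tyrosine, was at 4.78 and 14.7 CPM in vehicle-treated cells and 7.61 and 10.6 CPM in DCA-treated cells. Of the enzyme pair that removes it, Svbp was at 34.0 and 44.9 CPM in vehicle-treated cells and 41.9 and 61.0 CPM in DCA-treated cells, and Vash1 was at 2.35 and 0.0763 CPM in vehicle-treated cells and 1.30 and 0.158 CPM in DCA-treated cells and was not tested.

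Of 14 genes of microtubule nucleation, all tested, 1 fell at an unadjusted p of 0.05 and the median log2 fold change was 0.008. Of 25 genes of microtubule stability and end binding, 22 were tested, 2 fell, and the median was -0.028. Stmn1, which sequesters tubulin dimers, was at 775 and 1077 CPM in vehicle-treated cells and 807 and 810 CPM in DCA-treated cells. Of 17 motor genes, 16 were tested and 0 were called, with a median of 0.18, and for 7 of them, among them the dynein chains Dync1h1, Dync1i2, and Dync1li1, every DCA value was above every vehicle value. For 0 motor genes every DCA value was below, and the shares over all genes tested were 18.6% above and 14.7% below. The same counts were 5 above and 4 below for folding, 3 and 3 for nucleation, and 2 and 4 for stability. Among the dividing-cell genes 0 were above and 3 below. The 12 dividing-cell genes were all tested and all had negative log2 fold changes, with a median of -0.26, but 0 were called and the lowest unadjusted edgeR p among them was 0.0723. Without vehicle replicate 2, 5 of the 12 had negative log2 fold changes and the median was 0.14.

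**Figure D4:**
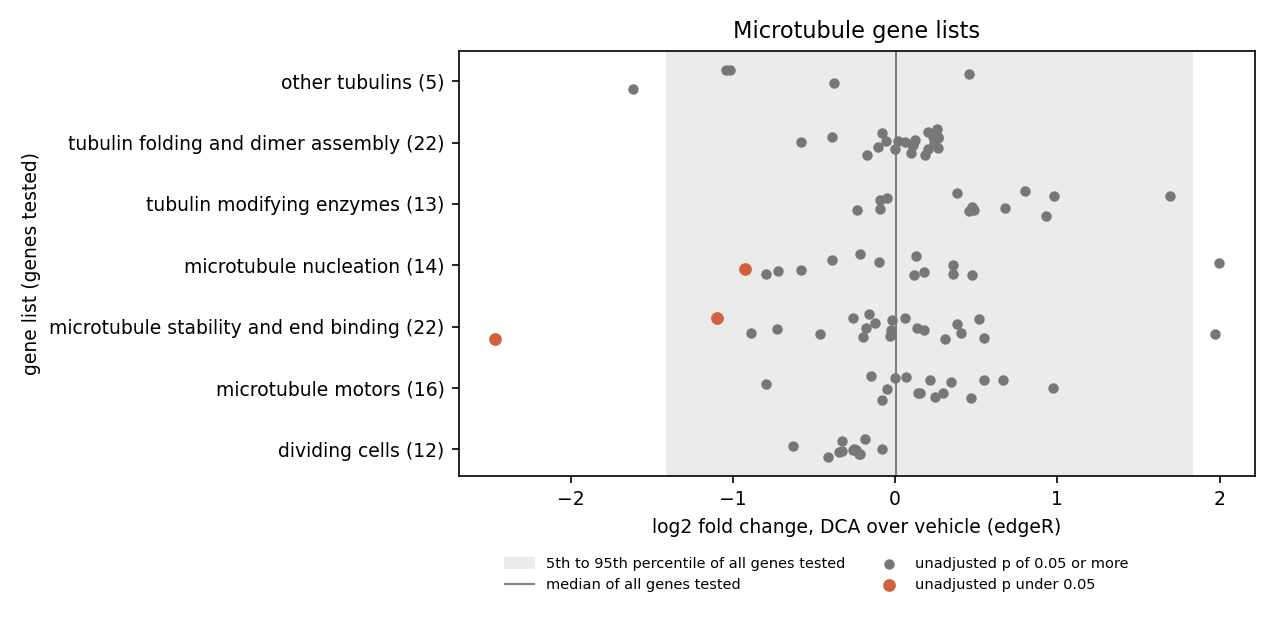
Log2 fold change of DCA over vehicle from edgeR (horizontal axis) for each tested gene of the 7 lists (rows, with the number tested), with vertical scatter for visibility. Orange points are the 3 genes with an unadjusted p under 0.05 (Kif2c, Camsap1, and Tubgcp3), all lower with DCA, and the gray band spans the 5th to 95th percentile of all genes tested, -1.41 to 1.83.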

How the data were processed

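RNA-Seq of 4 libraries was analysed. According to the submitters' processing notes and the methods, cDNA came from a SMART-Seq HT kit that does not mark strand, Cutadapt 1.9 filtered the reads, and hisat2 2.2.1 placed them on mm10. The deposited values made by the authors are whole-number counts per gene by Entrez identifier, in a table that is named for FPKM. The counting tool, its annotation, and its strand setting are not given in the sources used here. Rows with an Entrez identifier but no symbol (1275, with 0.137% to 0.173% of a library's counts) were kept.

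Counts were scaled as CPM with TMM factors and tested with edgeR 4.0.16 in R 4.3.3 (quasi-likelihood, filter at a mean of 1 CPM). SEs reflect how log2(CPM + 1) varied within treatments. Transcript lengths and coding sequences are of the longest complete protein-coding transcript in GENCODE M21, and positions, neighbors, and promoters are from RefSeq, both on GRCm38.

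The tubulin genes and the lists were chosen with earlier results of these data known. Genes named outside the 10 are list genes past an unadjusted p of 0.05, Ttc5, Atat1, Hdac6, Vash1, Svbp, and Ttl, the nearest annotated gene on each side of Tuba8, the 5 genes closest to it in level, and further list genes as examples. Pex26, the nearest protein-coding gene before Tuba8, was added after its values were seen. Alternatives were scaling by median of ratios or by total counts, a filter at 5 CPM or none, DESeq2 1.42.0, limma 3.58.1 with a pseudocount of 1, the replicate number as a block, DCA replicate 2 thinned to the median depth of the others, pseudocounts of 0.1 and 0.01, coding length, detection at 5 CPM, and leaving out each library.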

Additional observations from a re-analysis of the deposited data

How the results depend on the processing

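With 2 libraries per treatment, a fit without one of them assumes that the lone library varies like the other treatment's. The cause of each change below was not tested, apart from the number of genes or libraries. The number of genes past an adjusted p of 0.05, 0 by edgeR (478 at an unadjusted p of 0.05), was 36 without a filter, 126 with DESeq2, and 0 to 20 with a library left out, the 20 without vehicle replicate 1. Genes with an unadjusted p under 0.05 numbered 847 without a filter, 784 with DESeq2, and 106 (without DCA replicate 1) to 1497 (without vehicle replicate 1) with a library left out. List genes with an adjusted p under 0.05 numbered 0 under all these alternatives.

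At an unadjusted p of 0.05, nucleation genes, 1 at first, numbered 2 without a filter, 2 with DESeq2, 2 with the replicate block, and 0 to 3 with a library left out. Stability genes, 2 at first, numbered 1 with limma, 1 with the replicate block, and 0 to 5. The count for motors, 0 at first, was 2 without a filter and 0 to 2, and that for dividing-cell genes was 1 without a filter, 1 with DESeq2, and 0 to 4. It was 0 to 1 for other tubulins and for modifying enzymes with a library left out. The sources used here do not state what libraries of the same replicate number share (correlation of their deviations from the treatment means 0.0197). With the replicate block 0 genes passed an adjusted p of 0.05 and 450 passed without adjustment.

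The median log2 difference of the tubulin genes, 0.007, changed sign to -0.02 with median-of-ratios and -0.003 with total-count scaling, and ranged from -0.28 to 0.24 with a library left out. Over the same 4 fits the log2 difference ranged from -0.29 to 0.39 for Tuba1a, -0.45 to 0.18 for Tuba1b, -0.39 to 0.29 for Tuba1c, -1.87 to 0.30 for Tubb2b, -0.27 to 0.013 for Tubb4b, -0.41 to 0.59 for Tubb5, and -0.51 to 1.27 for Tubb6, all changing sign, whereas Tuba4a (-0.52 to -0.18), Tuba8 (2.80 to 3.999), and Tubb2a (0.24 to 1.80) did not. The Tuba8 value was 6.58 at a pseudocount of 0.1 and 9.89 at 0.01. The Tuba8 share of the α-tubulin level with DCA, 2.02% on average, was 1.22% without DCA replicate 1, 2.82% without DCA replicate 2, and 2.02% to 2.10% otherwise. Genes at 0 in one treatment and found in the other, 120 at first, numbered 10 when detection was set at 5 CPM (8 with DCA, 2 with vehicle) and 321 to 442 with a library left out.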
